A study of Mus musculus with 15 samples.

Results

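The 9 genes described here regulate or mark blood stem and progenitor cells, and their levels were read in 15 mouse acute promyelocytic leukaemias: the transcription regulators Myb, Gata2, Meis1, Erg, Lmo2, Sox4 and Hlf, the surface protein gene Cd34 and the secreted protein gene Egfl7. They were chosen by symbol: every probeset annotated with that symbol and no other was used, 118 probesets of 208397 with a single symbol, and 9 genes of 16277. The series holds 15 spleens from Bl/6 Taconic mice that had this leukaemia (APL, in which cells are blocked at the promyelocyte stage of neutrophil formation), 1 array each, named by number. All 15 form 1 group, APL spleen, with no treatment, age or genotype in the labels, so the comparisons are between tumours and not between conditions. Total RNA was amplified from 20 ng and read on Affymetrix Mouse Exon 1.0 ST arrays, which measure a gene through several probesets spread over its exons.

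In blood formation, stem cells are kept in an uncommitted state by a set of transcription factors that bind together at the same enhancers, among them Erg, Gata2, Lmo2 and its partners Tal1, Lyl1 and Ldb1. Myb drives the expansion of committed progenitors, Meis1 works with Hox proteins, Hlf is restricted to the most primitive cells, and Sox4 is a factor of early lymphoid cells that can transform myeloid cells when overexpressed. These genes are mostly turned down as granulocytes mature, and several are known oncogenes of leukaemia. The spleen also holds other cells that use them: mast cells and basophils express Gata2, and endothelium expresses Erg, Egfl7 and Cd34. In bulk RNA, fewer cells of a type and less RNA per cell cannot be told apart.

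Each gene is summarised by the median log2 intensity of its probesets, with the SD over tumours as its error. Detected means a 15-tumour mean above 6.41, the 40th percentile over named genes: 9766 genes met it, and 9452 of these had at least 3 probesets. Median deposited intensity was 108 to 129 per array. Pairs of arrays had r of 0.844 to 0.97 over detected genes. Those of tumor_9509 and tumor_9514 were set off from the rest: their r was 0.948 with one another, and the highest r of either with another array was 0.899. Separate animals are not stated in the labels, so a p-value here covers only array-to-array spread, which may be partly technical, and 15 arrays bound the precision. Intensities of different genes depend on their probes, so levels are compared between tumours and not between genes.

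For Myb, Cd34, Erg and Hlf the 250 bases before the annotated start are shown because they form the 2 pairs with r above 0.5 (RefSeq, GRCm38.p6, 5′ to 3′, CG dinucleotides in capitals).
Myb (chr10:21160985-21161234, minus strand): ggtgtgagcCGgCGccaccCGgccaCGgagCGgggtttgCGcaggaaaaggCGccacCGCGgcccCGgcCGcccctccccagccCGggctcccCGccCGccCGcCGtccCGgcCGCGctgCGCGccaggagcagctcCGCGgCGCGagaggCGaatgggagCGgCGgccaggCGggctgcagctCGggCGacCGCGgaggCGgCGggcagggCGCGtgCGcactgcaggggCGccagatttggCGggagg
Cd34 (chr1:194938571-194938820, plus strand): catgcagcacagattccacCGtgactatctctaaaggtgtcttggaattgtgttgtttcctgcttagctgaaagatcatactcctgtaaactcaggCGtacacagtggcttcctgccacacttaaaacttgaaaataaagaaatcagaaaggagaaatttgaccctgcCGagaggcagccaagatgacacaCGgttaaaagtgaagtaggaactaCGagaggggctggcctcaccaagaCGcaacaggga
Erg (chr16:95586594-95586843, minus strand): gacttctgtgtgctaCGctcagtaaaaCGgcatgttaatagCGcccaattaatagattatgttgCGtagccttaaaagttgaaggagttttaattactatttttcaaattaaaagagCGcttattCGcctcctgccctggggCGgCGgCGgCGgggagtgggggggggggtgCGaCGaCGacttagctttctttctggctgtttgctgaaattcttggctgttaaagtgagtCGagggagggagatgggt
Hlf (chr11:90390918-90391167, minus strand): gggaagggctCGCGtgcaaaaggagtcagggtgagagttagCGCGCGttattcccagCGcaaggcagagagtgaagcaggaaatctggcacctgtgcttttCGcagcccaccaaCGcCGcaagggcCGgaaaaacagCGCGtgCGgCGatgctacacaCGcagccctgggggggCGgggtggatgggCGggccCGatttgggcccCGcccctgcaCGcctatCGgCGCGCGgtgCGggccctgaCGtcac
Base composition differed between the windows. The Myb window held 40 CG dinucleotides and was 81.2% G or C, whereas that of Cd34 held 6 and was 46.4% G or C. Over 32851 promoter windows the medians were 6 CG dinucleotides and 52.4% G or C. The Erg window held 14 CG dinucleotides (48.8% G or C) and the Hlf window 26 (67.2%). On both strands, the letters AGGAAG, a form of the site of ETS factors such as Erg, were found 1 time in the Cd34 window and in none of the other 3, and 29.5% of all windows held them. For GATA factors the letters searched were AGATAA, held by 9.99% of windows but by none of the 4. An E-box, CAGCTG, is in 13% of windows and in none of these. The Myb letters were CAACTG, in 11.1% of all windows, and again no window shown holds them. For Meis1 the search used TGACAG, present in 15.9% of windows overall and absent from the 4. Hlf and its relatives were searched as TTACGTAA, found in 0.113% of windows and in none shown. A match describes the sequence only. Of the 9 genes, 8 had a promoter entry.

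Egfl7 also carries a microRNA, miR-126, that is known as a regulator of stem cell quiescence and endothelium. Its mature strand lies within the annotated span of Egfl7 (chr2:26591402-26591423, plus strand, RefSeq, GRCm38.p6), shown with its seed, bases 2 to 8, in capitals.
mmu-miR-126a-3p: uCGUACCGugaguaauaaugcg
The 13 probesets named Egfl7 are annotated to the host gene, and no value is given for the microRNA.

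Among the 9 genes, 8 were detected and Meis1 was not. Their spread was that of an ordinary gene: the median SD of the 9 genes was 0.29, equal to the median of 0.29 over the 9452 detected genes. Only Hlf had an SD above 0.5 (unrounded), 1 of 9 genes, against 10.8% of the detected genes (1019 of 9452). The highest tumour was tumor_9523 for Myb, Gata2, Lmo2 and Cd34, tumor_31 for Erg and Hlf, tumor_9509 for Sox4, tumor_9520 for Egfl7 and tumor_26 for Meis1. The lowest was tumor_9509 for Myb and Egfl7, tumor_9504 for Erg and Cd34, and tumor_9529 for Gata2, Lmo2 and Sox4.

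**Figure D1:**
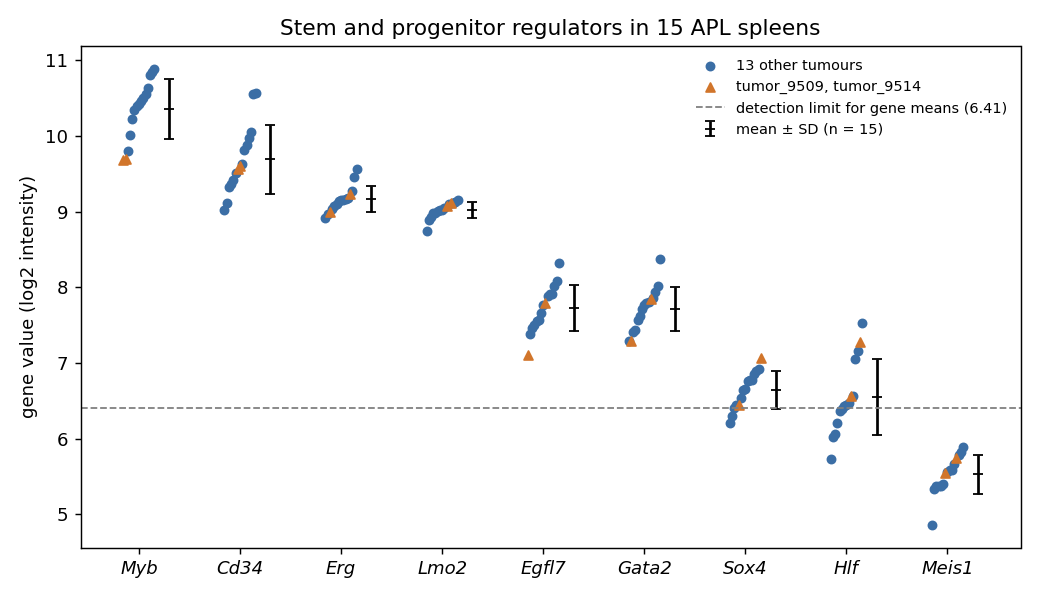
Gene values (log2 intensity, vertical axis) of the 9 genes in 15 APL spleens, 1 point per tumour sorted within each gene, with mean ± SD (n = 15) as black bars and the detection limit of 6.41 dashed. Myb, Cd34 and Hlf spread widely, Lmo2 lies within 8.74 to 9.16, and Meis1 lies below the limit in all tumours; heights of different genes are not comparable.

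Myb, the progenitor factor, was read by 19 probesets and ranged from 9.69 in tumor_9509 through a median of 10.43 to 10.89 in tumor_9523, a 2.30-fold span, with a mean of 10.35 ± 0.40 (SD, n = 15). The lowest values were in 3 tumours, tumor_9509 (9.69), tumor_9514 (9.70) and tumor_9504 (9.80), and the next was 10.01 in tumor_9520. The SD was above that of 75.8% of detected genes, and 0.32 without tumor_9509 and tumor_9514. Its probesets moved together: 17 of 19 correlated above 0.5 with the median of the others, and when its probesets were split into odd and even ranks by identifier, both sets' mean levels correlated at r = 0.94, against a median of 0.78 over detected genes. The exceptions were probeset 4710476, with a mean of 6.65, and probeset 5602734, with a mean of 2.15, the dimmest of the 118. Tumor_9523 was the highest tumour in 10 of the 19 probesets.

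Cd34, a sialomucin of the surface of stem and progenitor cells, was read by 12 probesets and ranged from 9.02 in tumor_9504 through a median of 9.60 to 10.57 in tumor_9523, a 2.93-fold span (mean 9.69 ± 0.46, SD, n = 15). High values were found in tumor_9523 (10.57) and tumor_29 (10.55), ahead of tumor_36 at 10.06. The low end was tumor_9504, with tumor_9529 at 9.11. All 12 probesets correlated above 0.5 with the median of the others, the split between probesets agreed at r = 0.95, and tumor_9523 was highest in 11 of 12. The mean pairwise r between probesets was 0.80 for Cd34 and 0.63 for Myb, and between -0.01 and 0.23 for the other 7 genes.

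Erg, an ETS factor of stem cells and endothelium, had a narrow range as a gene value, from 8.92 in tumor_9504 through 9.16 to 9.56 in tumor_31 (mean 9.16 ± 0.17, SD, n = 15), and its SD exceeded that of only 11.1% of detected genes. The 12 probesets did not move as a unit. A first principal component held 58.7% of the variance of the Erg probesets, and 7 of them followed it at r above 0.7. The mean over those 7 was lowest in tumor_9504 (8.89), tumor_9520 (9.08), tumor_9514 (9.15) and tumor_9509 (9.29) and highest in tumor_31 (10.10), with an SD of 0.39, while the mean over the other 5 had an SD of 0.19. The most variable, probeset 4532071, lay at 6.57 in tumor_9504 and 6.96 in tumor_9520 and at 9.58 in tumor_31. These 7 were picked from their values, so the contrast is a description.

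Lmo2, the bridging protein of the stem cell complex, had the smallest SD of the 9 genes by the median over probesets. With the mean over probesets Sox4 (SD 0.11) and Meis1 (0.12) were below Lmo2 (0.13), and after quantile normalization Erg (0.17) was below Lmo2 (0.19). Lmo2 ranged from 8.74 in tumor_9529 through 9.02 to 9.16 in tumor_9523 (mean 9.02 ± 0.11, SD, n = 15; 8 probesets), and only 1.0% of detected genes had a smaller SD. All 8 probesets were above the detection limit, and their single SDs were 0.18 to 0.47. They shared little tumour order: the split between probesets correlated at r = 0.48. Probesets 5160925 and 5606696 had r of -0.55 and -0.45 with the median of the others. In most tumours these were the middle pair of the 8, whose average is the gene value. They went opposite ways in tumor_9520 (8.41 and 9.45) and tumor_31 (9.23 and 8.88). The small SD of the gene value is that of this average, and the brightest probesets do not enter it. Relations of Lmo2 carry that limit. Quantile normalization widened the range of Lmo2 to 0.78, from 0.43 log2 units as deposited.

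Gata2, a zinc finger factor of stem cells and of mast cells and basophils, ranged from 7.29 in tumor_9529 and tumor_9514 through 7.77 to 8.38 in tumor_9523 (mean 7.72 ± 0.29, SD, n = 15; 11 probesets). The highest tumour stood clear of the next, tumor_9508 at 8.02, and was the highest in 6 of the 11 probesets. In 3 probesets that followed their first component at r above 0.7, the mean was 9.51 in tumor_9523 and 7.51 in tumor_9514, an SD of 0.55, against 0.19 for the mean of the other 8. These 3 were picked from their values, and averaging lowers the SD of the rest (probeset 4805966 of the other 8 had an SD of 0.47), so the contrast is a description. Gata2 lies on chromosome 6, whose 465 other detected genes had a median deviation of 0.23 in tumor_9523, where Gata2 deviated from its own median by 0.61. The chromosome deviated by 0.21 in tumor_31 (Gata2 by -0.05), by 0.21 in tumor_9509 (Gata2 by 0.07) and by 0.14 in tumor_9514 (Gata2 by -0.48). Chromosomes of other members also deviated in single tumours. Chromosome 1 did so by 0.18 in tumor_29 (Cd34 by 0.95) and by 0.19 in tumor_9529 (Cd34 by -0.49). Chromosome 10 deviated by 0.13 in tumor_33 (Myb by 0.42) and by 0.12 in tumor_9504 (Myb by -0.63). Chromosome 2 deviated by -0.14 in tumor_36 (Egfl7 by -0.39, Lmo2 by -0.04), and chromosome 11 by 0.13 in tumor_29 (Hlf by 0.12). For chromosome 16 the value was 0.30 in tumor_9492 (Erg by -0.08) and 0.18 in tumor_9529 (Erg by 0.11). The Erg value of -0.08 is that of the median over probesets. Tumor_9492 was the highest tumour for Erg probesets 4385326 (11.87), 4491453 (10.29) and 5329654 (8.46). Probesets 4318853 (6.25, mean 6.46) and 4410912 (9.60, mean 9.85) were lower there. The part of the chromosomes in the member values was not tested.

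Egfl7, a secreted protein of endothelium that is also made by leukaemic blasts in human disease, ranged from 7.11 in tumor_9509 through 7.77 to 8.32 in tumor_9520 (mean 7.73 ± 0.31, SD, n = 15; 13 probesets). A subset of its probesets gave another order of tumours. Probeset 4972160 lay at 9.63 in tumor_9523, 9.41 in tumor_9508 and 8.69 in tumor_9520. Probeset 5393636 lay at 9.18, 9.17 and 8.41 in the same tumours, and probeset 5119367 at 9.30, 8.65 and 8.32. Over the 4 probesets that followed the first component, tumor_9523 was highest (8.89) and tumor_36 lowest (6.99), with an SD of 0.52, against 0.13 for the mean of the other 9. This choice also used the values, and single probesets of the other 9 varied more than their mean (5558090 with an SD of 0.66, 4916908 with 0.49). The gene median instead put tumor_9520 first.

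Hlf, a basic leucine zipper factor of primitive cells and the fusion partner of TCF3 in a human leukaemia, had the largest SD of the 9 genes by the median over all probesets. That rank went to Cd34 with the mean over probesets (SD 0.40 for Hlf and 0.49 for Cd34) and with dim probesets left out (0.23 and 0.46). Hlf ranged from 5.73 in tumor_9492 through 6.44 to 7.53 in tumor_31 (mean 6.55 ± 0.50, SD, n = 15; 15 probesets), and its SD exceeded that of 89.4% of detected genes. High values were found in 4 tumours: tumor_31 (7.53), tumor_9509 (7.28), tumor_9523 (7.16) and tumor_9529 (7.05). The next was 6.57 in tumor_29, and 6 tumours fell below the detection limit, so no fold is given. Of the 15 probesets 7 had a mean below the limit, and tumor_31 was the highest tumour in 9 of them all. In 5 probesets with a shared pattern the mean was 8.08 in tumor_31, 6.81 in tumor_9523 and 6.52 in tumor_9509, with a median of 5.43. Probeset 4928433, for example, lay at 7.99 in tumor_31, 7.47 in tumor_9509, 6.76 in tumor_9523 and 3.12 in tumor_9492. These 5 too were picked from their values. All but 4415238 (mean 6.87) had a mean below the detection limit. Those means were 4.87 for 4509539, 5.34 for 4928433, 6.37 for 4964470 and 4.88 for 5157957. The mean over the other 10 had an SD of 0.19, but single probesets among them varied more, among them 4435458 (SD 0.90), 5032787 (SD 0.58) and 4812979 (SD 0.46). With dim probesets left out the range of Hlf was 0.67, against 1.80 with all probesets.

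Sox4, an HMG-box factor, ranged from 6.21 in tumor_9529 through 6.65 to 7.07 in tumor_9509 (mean 6.64 ± 0.25, SD, n = 15; 11 probesets), and 3 tumours were below the limit. None of its 11 probesets correlated above 0.5 with the median of the others, and the split between probesets agreed at only r = 0.26. Meis1, a homeodomain partner of Hox proteins, lay at 5.53 ± 0.26 (SD, n = 15), from 4.86 in tumor_9500 through 5.56 to 5.89 in tumor_26, below the limit in all 15 tumours. Of its 17 probesets 15 had a mean below the limit, and the split agreed at r = -0.20. Probeset 4771652 was the exception in level, with a mean of 9.26 and an SD of 0.23. The tumour order of these 2 genes was thus not shared between their own probesets, and relations that involve them carry that limit.

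**Figure D2:**
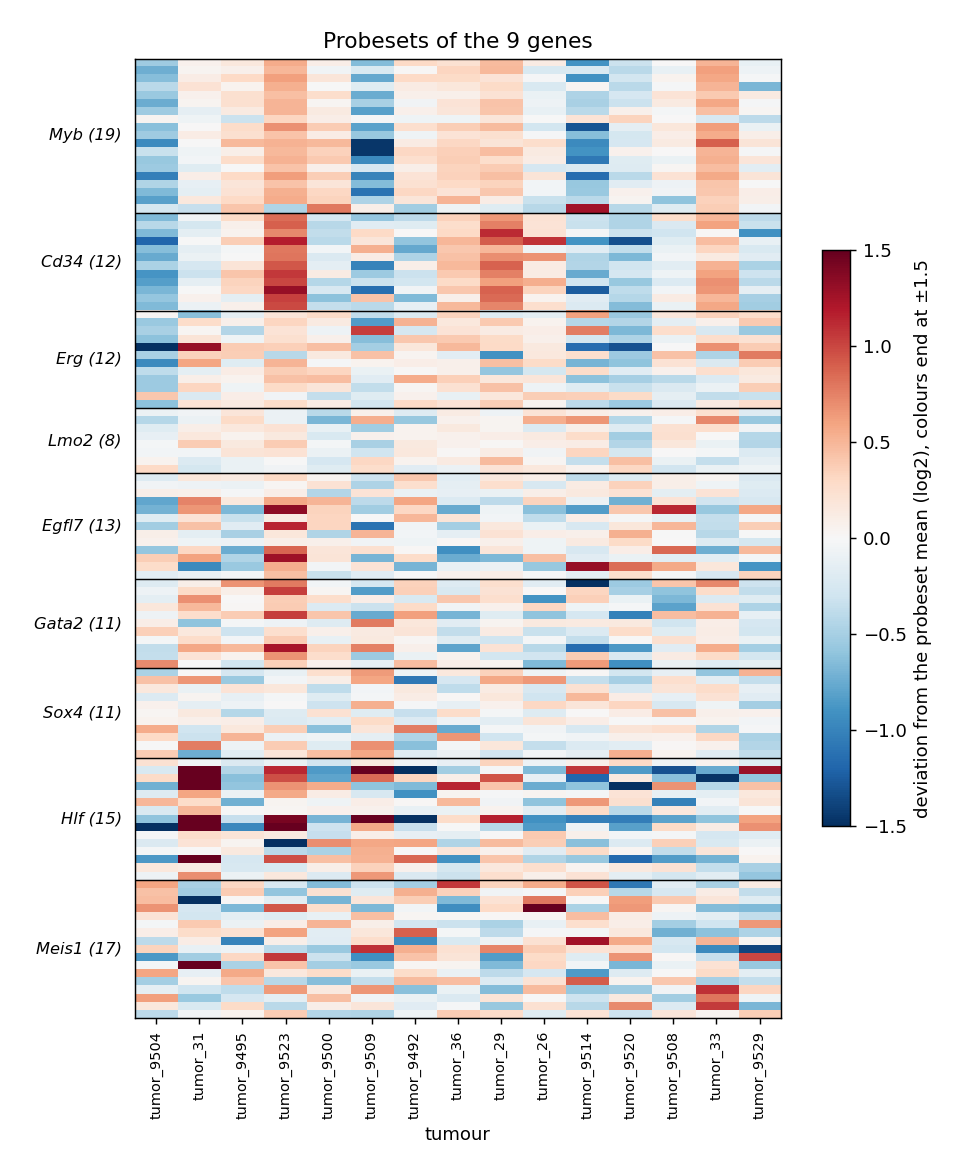
Deviation of each of the 118 probesets (rows, grouped by gene with the number of probesets) from its own mean over 15 tumours (columns), in log2 units, red above and blue below. Myb and Cd34 show columns of one colour over nearly all probesets, Hlf a set of rows that is red in tumor_31, and Meis1 and Sox4 no shared columns.

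**Figure D3:**
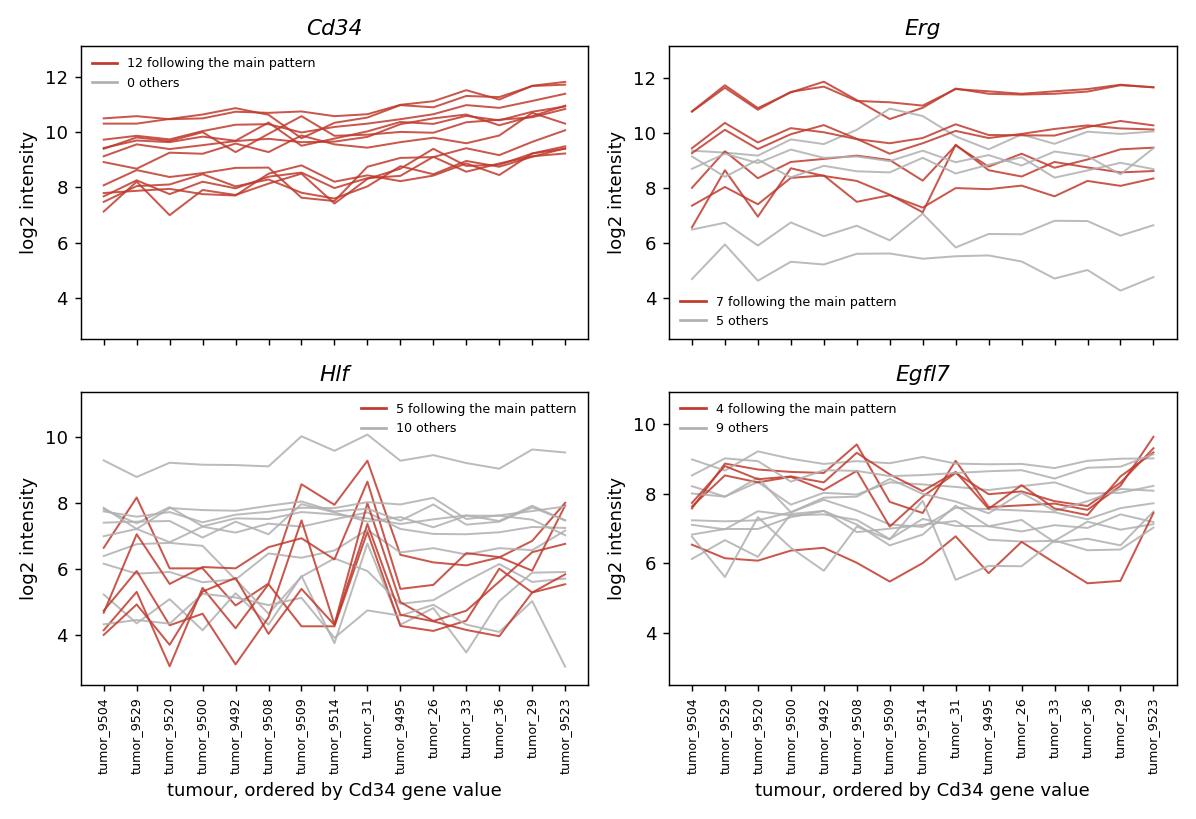
Log2 intensity (vertical axis) of every probeset of Cd34, Erg, Hlf and Egfl7 in the 15 tumours, ordered along the horizontal axis by the Cd34 gene value. Red lines follow the first principal component of their gene at r above 0.7 (12 of 12 for Cd34, 7 of 12 for Erg, 5 of 15 for Hlf, 4 of 13 for Egfl7) and grey lines do not; for Hlf the red lines peak in tumor_31.

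Of the 36 pairs among the 9 genes, 23 had a positive correlation across tumours, with a median r of 0.13 and a range from -0.44 to 0.68. For comparison, the median r with all detected genes lay between -0.10 (Meis1) and 0.23 (Myb). In the test, every detected gene was fitted on the level of 1 member with limma, with Benjamini-Hochberg adjustment over all detected genes, and a pair passed when it did so in both directions. No pair passed. At an unadjusted two-sided permutation p under 0.05, Pearson's r passed for 2 pairs and Spearman's rho for 2. No p adjusted over these pairs alone is given, since the genes were chosen with results known.

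Myb and Cd34 had the highest correlation of the 36 pairs, with r = 0.68 (permutation p = 0.00546) and rho = 0.70 (permutation p = 0.00478) over 15 tumours. Across all genes the limma adjusted p was 0.0584 with Myb as the predictor and 1.0 with Cd34 as the predictor. The slope of Cd34 on Myb was 0.78 ± 0.22 (SE) in that fit. The tumours farthest from the median of Myb were tumor_9509 and tumor_9514, where Myb was lowest. By the median over probesets Cd34 lay mid-range in them (9.56 and 9.60), and without them r was 0.83. By the mean over its 12 probesets Cd34 was low in tumor_9514 (9.05, against a median of 9.37 over tumours). In tumor_9509 its probesets did not move together: 5402597 lay at 7.62 (mean 8.75) and 5161428 at 10.57 (mean 10.03). Within the 10 tumours with 4-digit numbers r was 0.56, and the 5 with 2-digit numbers were too few for a value. The adjusted p with Myb as predictor passed with the mean over probesets (0.0404), with a stricter filter on dim genes (0.0452) and with the first principal component of the probesets (0.0214), and was between 0.0637 and 0.3 in the other 7 alternatives.

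Erg and Hlf had r = 0.61 (permutation p = 0.0164) and rho = 0.49 (permutation p = 0.0667), with adjusted p of 0.515 and 0.768 by limma. Their relation rested on tumor_31 and tumor_9523, without which r was 0.15. It also depended on how probesets were summarised: the slope of Hlf on Erg was 1.78 ± 0.60 (SE) with the median. It was 0.60 ± 0.41 with the mean over probesets, 0.42 ± 0.39 with dim probesets left out and 0.76 ± 0.40 with the first principal component. After centring it was 2.13 ± 0.60 and after quantile normalization 2.31 ± 0.51. Without tumor_9509, in which Hlf was high (7.28) and Erg low (9.0), and tumor_9514, r was 0.81. Meis1 and Erg had r = -0.44 (permutation p = 0.101) and rho = -0.58 (permutation p = 0.0246), but Meis1 was not detected. Lmo2 and Cd34 had r = 0.48 (permutation p = 0.0668; rho = 0.34, permutation p = 0.22), which was 0.16 without tumor_9529 and tumor_9523. Myb and Sox4 had r = -0.41 (permutation p = 0.13; rho = -0.43, permutation p = 0.11). Of the 36 pairs, 26 kept their sign after quantile normalization, after centring and without the arrays of tumor_9509 and tumor_9514.

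**Figure D4:**
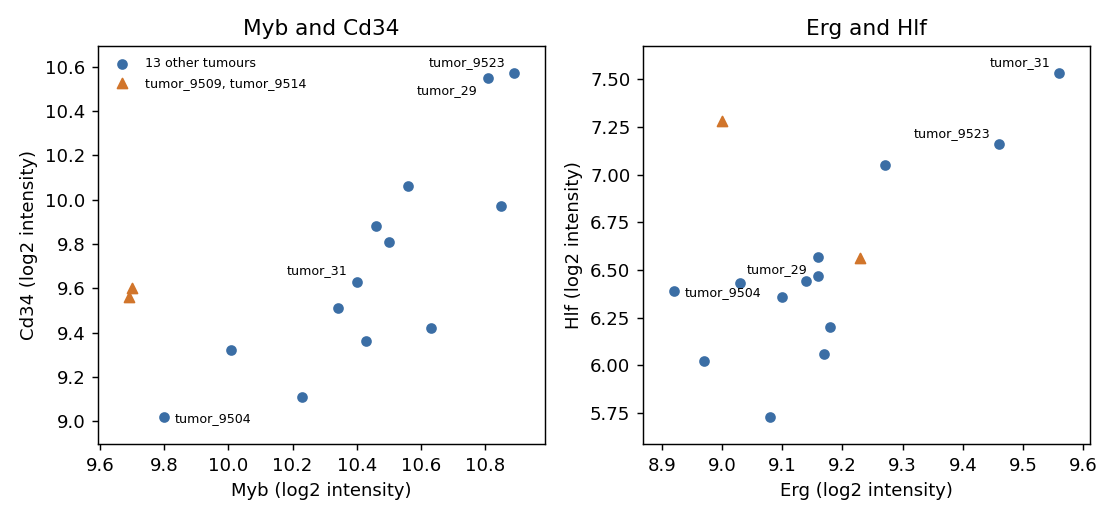
Log2 intensity of Cd34 against Myb (left) and of Hlf against Erg (right), 1 point per tumour, with tumor_9509 and tumor_9514 as triangles. In the left panel tumor_9523 and tumor_29 are at the upper right and tumor_9504 at the lower left; in the right panel tumor_31 and tumor_9523 stand at the upper right.

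**Figure D5:**
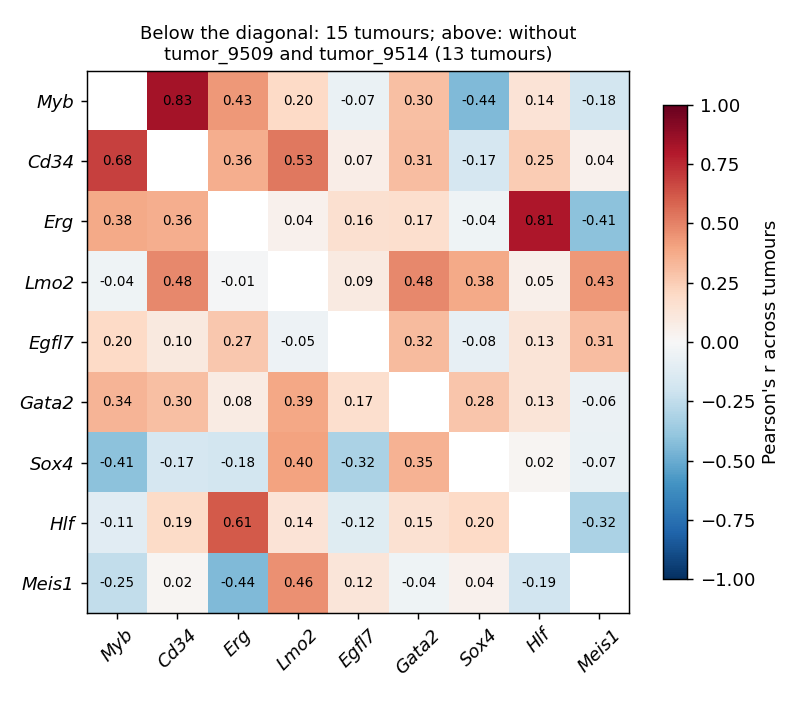
Pearson's r between the 9 genes across tumours, over all 15 tumours below the diagonal and without tumor_9509 and tumor_9514 above it. Only Myb with Cd34 (0.68 and 0.83) and Erg with Hlf (0.61 and 0.81) exceed 0.5 on both sides.

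Which genes varied with each of the 9 was asked of all detected genes. Only Myb gave calls: 311 of 9765 genes (3.18%) had an adjusted p under 0.05 by limma, 300 higher (3.07%) and 11 lower (0.113%) where Myb was higher. None of the 7 other detected members was among them. None of these calls was made without tumor_9509 and tumor_9514, or after centring or quantile normalization, which gave 0 calls each (688, 1821 and 1124 genes at an unadjusted p under 0.05). Those arrays were where Myb was lowest (9.69 and 9.70). The other 8 genes gave 0 calls, with 2.51% (Cd34) to 7.59% (Egfl7) of genes at an unadjusted p under 0.05, against 24.2% for Myb.

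The genes most like Myb were Pacc1, a proton-activated chloride channel (r = 0.89, adjusted p = 0.0294 by limma, n = 15), Fancg of the Fanconi anaemia DNA repair complex (r = 0.87, adjusted p = 0.0401) and Chtf8 of a clamp loader in DNA replication (r = 0.86, adjusted p = 0.0218). Without tumor_9509 and tumor_9514 their r was 0.83, 0.84 and 0.81. The most opposed were Trem2, a receptor of macrophages (r = -0.84, adjusted p = 0.0405), and Mapk8ip2, a scaffold of JNK signalling (r = -0.82, adjusted p = 0.092). Of 35 detected stem and progenitor partners 1 passed, a share near the 3.18% over all genes. It was Etv6, an ETS repressor needed by stem cells, at r = 0.84 (adjusted p = 0.0218) and 0.69 without those arrays. The stem cell factor receptor Kit had r = 0.53 (adjusted p = 0.14) and the corepressor Cbfa2t3 r = 0.66 (adjusted p = 0.0893), and 0.33 and 0.44 without those arrays. Other partners went the other way, among them Gfi1b (r = -0.48) and Trib2 (r = -0.44). The median r with Myb over the 35 partners was 0.15, against 0.23 over all detected genes.

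Over all 12 lists 7 of 123 list entries passed with Myb (5.69%, against 3.18% of all genes), and no list had more than 1, so the genes below are named as single genes. In the primary granule list 1 of 8 passed, Mpo (myeloperoxidase, r = 0.77, adjusted p = 0.0466). In the mast cell, basophil and eosinophil list 1 of 8 passed, Hdc (histidine decarboxylase, r = 0.77, adjusted p = 0.0294, and 0.72 without tumor_9509 and tumor_9514). The S phase and mitosis list had a median r of 0.61 over all arrays, against 0.23 over all detected genes. Of its 12 genes 1 passed, the kinase Cdk1 (r = 0.76, adjusted p = 0.0405), and Top2a had r = 0.67 (adjusted p = 0.0611). Without tumor_9509 and tumor_9514 r fell for most of these genes (Mcm2 from 0.66 to 0.45) and rose for others (Pcna from 0.38 to 0.54). After quantile normalization r was lower for each of the 12 (0.61 for Cdk1, 0.56 for Top2a). No background median is given for these settings, so the contrast with 0.23 is limited to all arrays as deposited. Vcam1 (r = 0.70, adjusted p = 0.0466) and the platelet integrin Itgb3 (r = 0.70, adjusted p = 0.0496) passed among 10 and 7 genes of their lists. Cd79a of the B cell receptor was lower where Myb was higher (r = -0.70, adjusted p = 0.0491), 1 of 4 B cell genes. Without tumor_9509 and tumor_9514, r with Myb was 0.58 for Mpo, 0.48 for Cdk1, 0.43 for Vcam1, 0.32 for Itgb3 and -0.47 for Cd79a. None of 12 secondary granule genes, 9 mature neutrophil genes, 5 erythroid, 7 T cell or 6 endothelial genes passed.

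Gata2 correlated with genes of mast cells, basophils and eosinophils, but no gene passed adjustment (adjusted p = 1.0 by limma for each). Over the 7 other detected genes of that list the median r was 0.62, against 0.05 over all detected genes. Prg2, the eosinophil major basic protein, had r = 0.67 (permutation p = 0.0057) and rho = 0.64 (permutation p = 0.0117). For Prg2 r was 0.77 in the 10 tumours with 4-digit numbers, 0.60 without tumor_9509 and tumor_9514 and 0.58 after quantile normalization. The mast cell protease Cpa3 had r = 0.63 (permutation p = 0.0125) and rho = 0.62 (permutation p = 0.0155), and its relation fell to 0.41 without the tumours farthest in Gata2, tumor_9523 and tumor_9529. The basophil protease Mcpt8 had r = 0.62 (permutation p = 0.0142; rho = 0.62, permutation p = 0.0156) and Prg3 r = 0.63 (permutation p = 0.0109; rho = 0.62, permutation p = 0.0169). Hdc, Epx and Prss34 had r of 0.40, 0.37 and 0.25. The mean level of the 8 detected genes of this list, Gata2 included, ranged from 7.34 in tumor_36 to 9.91 in tumor_33, while Ms4a2, Fcer1a, Il5ra, Ccr3 and Tpsb2 were not detected. Their part in the Gata2 values was not tested. This relation, and those of Gata2, Hlf, Erg and Egfl7 to partner genes below, were singled out after their values were seen, out of 1106 relations of the 9 genes to entries of the 12 lists, of which 103 had an unadjusted limma p under 0.05.

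Among partner genes of Gata2, its cofactor Zfpm1 had r = 0.66 (permutation p = 0.00735; rho = 0.50, permutation p = 0.0601) and the ETS factor Fli1 r = -0.59 (permutation p = 0.0216; rho = -0.55, permutation p = 0.0374), with adjusted p of 1.0 by limma for both. Ikzf2 had r = 0.63 (permutation p = 0.011) and Adgrg1 r = 0.55 (permutation p = 0.0342), and neither passed adjustment. Their rho was 0.51 (permutation p = 0.0554) and 0.32 (permutation p = 0.238). Without tumor_9523 and tumor_9529 r was 0.43 for Zfpm1, 0.38 for Ikzf2, 0.42 for Adgrg1 and -0.60 for Fli1. By likeness alone the nearest genes were Gpatch4 (r = 0.80), Adck1 (r = 0.77) and Chga (r = 0.77, chromogranin A). The most opposed were Tceal8 (r = -0.83, adjusted p = 0.124 by limma) and Lcor (r = -0.80). Quantile normalization left r at -0.84 for Tceal8 and -0.58 for Lcor.

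Of the stem and progenitor partners, Hlf had its closest relation with the Polycomb gene Bmi1, at r = 0.69 (permutation p = 0.00435) and rho = 0.68 (permutation p = 0.00618), but an adjusted p of 0.678 by limma; r was 0.68 without tumor_31 and tumor_9509, the tumours farthest in Hlf. The granulocyte repressor Gfi1 had r = -0.55 (permutation p = 0.0328) and rho = -0.58 (permutation p = 0.0249). With Hlf its r was -0.88 in the 10 tumours with 4-digit numbers and -0.65 without tumor_31 and tumor_9509. Without tumor_9509 and tumor_9514 r was -0.47 for Gfi1. Its adjusted p by limma was 0.768. The mean level of 4 detected B cell genes was also highest in tumor_31 (8.15) and lowest in tumor_9492 (6.94). Tumor_31 was likewise the highest for the T cell list (7.98), the secondary granule list (11.84) and the partners (8.14). Cd79b had r = 0.51 with Hlf (permutation p = 0.0548; rho = 0.49, permutation p = 0.069), and 0.37 without tumor_31 and tumor_9509; its adjusted p by limma was 0.768. Without those tumours r with Hlf was 0.04 for Cd79a, 0.21 for Blnk and 0.01 for Pax5, against 0.50, 0.51 and 0.20 with them. The part of B cells in the Hlf values was not tested; Ms4a1, Ebf1, Dntt, Cd22 and Rag1 were not detected. Genes most like Hlf were Phlda1 (r = 0.83), Crbn (r = 0.82) and Setmar (r = 0.81), and the most opposed Slc25a25 and Rap2b (both r = -0.83).

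Erg was nearest to Zfp87 (r = 0.84), Sdr39u1 (r = 0.83) and Nae1 (r = 0.82), and opposed to Rph3al (r = -0.79) and Celsr2 (r = -0.78), with adjusted p of 0.353 or more by limma. After quantile normalization r was 0.78, 0.73 and 0.79 for the nearest genes but only -0.37 for Rph3al and -0.30 for Celsr2. The Erg partner Tcf4, an E protein, had r = 0.65 (permutation p = 0.009) and rho = 0.55 (permutation p = 0.0343). Its r was 0.39 without tumor_31 and tumor_9523, and its adjusted p was 0.503 by limma. Cd34 was nearest to Fnbp1l (r = 0.75), Hyls1 and Afg1l (both r = 0.73), and opposed to Creb5 (r = -0.90) and Pbld2 (r = -0.78), with adjusted p of 1.0. Egfl7 was nearest to Arfgap2 (r = 0.82), Ndufs3 (r = 0.81) and Lmf1 (r = 0.79), and opposed to Prss8 (r = -0.80) and Grin2c (r = -0.79). For Prss8 r with Egfl7 was -0.80 after quantile normalization, and for Grin2c -0.52. The homeobox gene Hoxa10 was correlated with Egfl7 at r = -0.67 (permutation p = 0.00573) and rho = -0.64 (permutation p = 0.0115), with an adjusted p of 0.652 by limma. Endothelial genes had a median r with Egfl7 of 0.19 over 6 detected genes against 0.14 over all detected genes, and Cdh5, Kdr, Tek, Emcn, Plvap, Esam, Tie1 and Sox17 were not detected. For Erg the endothelial median r was -0.30 and for Cd34 -0.08.

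Lmo2 was nearest to Cryga (r = 0.82), Nkx2-6 (r = 0.80) and Pycr1 (r = 0.79), and opposed to Ndrg2 and Chd8 (both r = -0.80). Quantile normalization left r at 0.77, 0.88 and 0.70 for the nearest genes but at -0.49 for Ndrg2 and -0.54 for Chd8. Sox4 was nearest to Magix (r = 0.84), Psd (r = 0.82) and Trim3 (r = 0.76), and opposed to Dcun1d5 (r = -0.82) and Mtbp (r = -0.80). Meis1 was nearest to Slc14a2 (r = 0.89), Cdh15 (r = 0.81) and Foxb2 (r = 0.80), and opposed to Zfx (r = -0.87) and Otub2 (r = -0.83). For Zfx r was -0.57 after quantile normalization, and for Otub2 -0.71. No adjusted p by limma in these 3 genes was below 0.251.

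The partners themselves were partly present. Of 57 listed, 54 were measured and 35 detected. From the Lmo2 complex, Lyl1 lay at 8.83 ± 0.21 (SD, n = 15), Ldb1 at 9.10 ± 0.32 and Tal1 at 6.95 ± 0.28, all detected, whereas the erythroid factor Gata1 lay at 6.17 ± 0.23, below the limit. Among the Meis1 partners, Pbx2 lay at 7.60 ± 0.27 and Pbx3 at 6.49 ± 0.31, both detected, and Hoxa9 at 6.40 ± 0.22, below the limit, Hoxa7 at 6.50 ± 0.22 and Hoxa10 at 6.70 ± 0.17, above it. Of other genes used in stem cells, Mecom (5.34 ± 0.23), Prdm16 (6.24 ± 0.22), Procr (5.68 ± 0.33) and Slamf1 (4.68 ± 0.24) were not detected, while Bmi1 (8.01 ± 0.28), Msi2 (7.58 ± 0.62) and Cdkn1c (6.97 ± 0.20) were. Among detected partners the spread was largest for Ly6a (7.0 ± 0.81, highest in tumor_31 at 9.11) and the adhesion receptor Adgrg1 (8.78 ± 0.68, lowest in tumor_36 at 7.18 and highest in tumor_9523).

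Tumours whose number has 4 digits (n = 10) and 2 digits (n = 5) were compared, since the number format is the only division in the labels. No gene of 9766 passed (0%; 226 at an unadjusted p under 0.05) by limma. Cd34 lay at 9.53 ± 0.43 in tumours with 4 digits and at 10.02 ± 0.34 in those with 2 digits (SD), a difference of -0.49 ± 0.21 (SE, limma p = 0.0307, adjusted p = 1.0). Myb lay at 10.22 ± 0.41 and 10.62 ± 0.20 in the same order, a difference of -0.39 ± 0.19 (limma p = 0.05, adjusted p = 1.0). For the other 6 detected genes the difference was between -0.11 and 0.13.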

How the data were processed

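Each of 15 arrays holds RNA from 1 spleen with APL. The authors deposited 1 linear intensity per probeset and array (2.38 to 19380.5). The submitters' processing notes name RMA and the build mm9, with no settings. The values themselves show a linear scale with no centring. Background correction, slide and scan date could not be varied, because scanner output was not used here.

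Values were log2 transformed with no pseudocount. Of 229581 probesets, 208397 had 1 gene symbol, 3965 several and 17219 none, and probesets of the first kind entered the analysis. A RefSeq table (GRCm38.p6) held 14132 of the 16299 symbols, gave newer names for 2124, and left 43 as they were. It served names and chromosome membership only.

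Each detected gene was fitted on the level of each of the 9 genes with limma (lmFit, eBayes). Permutation tests used 100000 resamples. Fits were tested on simulated data. Named were the 9 genes, for each the 3 genes of highest r and the 2 of lowest r (detected, 3 probesets or more), up to 4 genes of a list in which a gene passed, and partners that passed. Kit and Cbfa2t3, the relations of Gata2, Hlf, Erg and Egfl7 to list genes and the partner levels were picked after values were seen. The members and lists were chosen with earlier results of these data known. Python 3.11.15 with pandas 2.3.3 and numpy 2.4.6 handled the tables, matplotlib 3.10.9 the plots, and limma 3.58.1 ran under R 4.3.3.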

Additional observations from a re-analysis of the deposited data

How the results depend on the processing

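Mean levels moved by less than 1 SD over tumours in 38 of 45 alternatives and ranges in 38 of 45. With the mean over probesets, mean level was 9.83 for Myb, 5.21 for Meis1, 8.92 for Erg and 9.50 for Lmo2, and range was 0.42 for Meis1, 0.46 for Sox4 and 0.81 for Egfl7. With probesets above the 25th percentile, mean level was 6.26 for Meis1, 7.07 for Sox4 and 7.35 for Hlf, and range 0.69, 0.46 and 0.67. After quantile normalization the range of Lmo2 was 0.78. Genes varying with Myb numbered 311 as reported, 0 with centred arrays, 0 after quantile normalization, 0 without tumor_9509 and tumor_9514, 46 with no filter on dim genes, 126 with the number of digits as a covariate, 196 with limma-trend, 922 with probesets above the 25th percentile and 1056 with the first principal component of its probesets, the last added after the data were seen. For the other genes calls numbered 0 as reported. After quantile normalization they were 1 for Gata2, 16 for Erg and 683 for Lmo2. The mean over probesets gave 9 for Erg and 3 for Sox4, probesets above the 25th percentile gave 275 for Hlf, and the first principal component gave 6 for Meis1, 30 for Erg and 4 for Hlf. The causes were not tested. No pair passed in both directions and no gene passed by tumour numbering under any alternative run. No paired analysis was possible because the labels give 1 group.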
